A study of Mus musculus with 21 samples.

Results

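The genes described here encode subunits of respiratory complexes II to V that are made from nuclear DNA. They were taken by symbol, as every row matching Sdha to Sdhd, Uqcr, Cox4 to Cox8 or Atp5, with 7 pseudogene symbols containing -ps left out. Of 54532 symbols listed in each of 2 deposited tables, 49 matched: 4 of complex II, 8 of complex III, 19 of complex IV and 18 of complex V. In each of the tables, 44 of them had a mean normalized count of at least 10 and were tested (4, 8, 15 and 17 by complex). The other 5 were Atp5o.1 and Cox8c, at 0 in all 21 libraries, and Cox4i2, Cox6c2 and Cox7b2, with reads in some. A single library held 33 reads of Cox4i2 and 23 of Cox6c2, as described at the end. The rule works on names, so 2 members are not regular subunits: Cox7a2l is a factor of respiratory supercomplexes, and Atp5s is a coupling factor of the ATP synthase.

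Expression was measured by bulk RNA sequencing of primary brain microglia from mice, to ask how loss of the myeloid receptor gene Trem1 acts in aging and in an amyloid model. For aging, wild-type and Trem1-/- mice were each sampled young and aged. For the amyloid model, wild-type, 5XFAD and 5XFAD Trem1+/- mice were sampled as adults. Each of the 7 groups had 3 libraries, and ages are given in words only. 5XFAD mice carry human transgenes with familial Alzheimer's disease mutations, driven in neurons by the Thy1 promoter, and form amyloid plaques. No label gives the deleted part of Trem1, the way the cells were isolated, any pooling of animals, or whether replicates are separate mice. The p-values below therefore measure only the spread between these samples, which may be technical.

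Depth, as reads assigned to genes, was 8600878 to 19411434 per library for aging and 9264999 to 18698707 for 5XFAD. All 9 microglial markers counted, P2ry12, Cx3cr1 and Tmem119 among them, were detected in every library, and their summed normalized count ranged from 264455 to 405194 for aging and from 277093 to 385924 for 5XFAD. In young mice the normalized count of Trem1 was higher with the label Trem1-/- (89.4 to 99.8) than in wild type (7.65 to 25.2). In aged mice it was 124 to 244 with the label and 188 to 269 in wild type, lower by the median but overlapping. In the 5XFAD table it was 0 to 62.7 in wild type, 13.7 to 36.8 in 5XFAD and 18.1 to 38.3 in 5XFAD labelled Trem1+/-. Because the deleted part is not given, Trem1 reads cannot show whether a label is right. Every genotype direction below rests on the labels.

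The respiratory chain in the inner mitochondrial membrane passes electrons to oxygen, and the proton gradient it builds across that membrane drives ATP synthesis. Complex II (succinate dehydrogenase) feeds electrons from the tricarboxylic acid cycle, complex III (the cytochrome bc1 complex) hands them to cytochrome c, complex IV (cytochrome c oxidase) reduces oxygen, and complex V is the ATP synthase. Complex II is wholly encoded in the nucleus, whereas complexes III to V also need subunits encoded in mitochondrial DNA. Microglia use oxidative phosphorylation in the resting state and are known to shift towards glycolysis when activated by inflammatory stimuli. Many promoters of these genes carry sites for the nuclear respiratory factors: NRF1, and the ETS family factor GABP, also called NRF2.

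Promoter sequence from RefSeq (GRCm38.p6) was at hand for 34 of the 49 members, as 37 windows of the 250 bases before a transcription start. The NRF1 core GCGCATGCG, searched on both strands, was in 4 member windows (10.8%), those of Cox6a1, Atp5g2, Atp5k and Atp5l, and in 1.45% of all 32851 windows. The core is nearly palindromic, so matches on the 2 strands can overlap. The ETS core CCGGAAG, searched in the same way, was in 9 member windows (24.3%) and in 6.91% of all. The 4 windows below belong to members that were higher in a 5XFAD group, in the comparisons that follow, and they show how unlike each other these promoters are. They read 5′ to 3′ towards the start, and capitals mark a match to either motif on either strand.
Cox6a1 (chr5:115348959-115349208, minus strand): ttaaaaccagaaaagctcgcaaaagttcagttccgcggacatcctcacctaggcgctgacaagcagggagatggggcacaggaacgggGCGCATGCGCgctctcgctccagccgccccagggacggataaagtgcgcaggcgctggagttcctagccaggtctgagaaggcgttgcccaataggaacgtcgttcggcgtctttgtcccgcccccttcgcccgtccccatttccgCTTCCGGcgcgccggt
Uqcr11 (chr10:80406822-80407071, minus strand): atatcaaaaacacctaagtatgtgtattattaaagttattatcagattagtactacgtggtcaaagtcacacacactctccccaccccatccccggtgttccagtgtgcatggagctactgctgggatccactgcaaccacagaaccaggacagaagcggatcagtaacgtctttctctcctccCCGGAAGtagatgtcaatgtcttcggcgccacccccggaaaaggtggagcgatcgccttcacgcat
Cox5b (chr1:36691237-36691486, plus strand): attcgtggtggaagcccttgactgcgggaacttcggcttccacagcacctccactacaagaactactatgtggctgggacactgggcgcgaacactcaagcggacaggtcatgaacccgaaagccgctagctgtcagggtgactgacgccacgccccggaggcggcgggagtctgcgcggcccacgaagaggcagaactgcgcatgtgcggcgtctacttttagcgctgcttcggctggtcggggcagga
Cox8a (chr19:7217617-7217866, minus strand): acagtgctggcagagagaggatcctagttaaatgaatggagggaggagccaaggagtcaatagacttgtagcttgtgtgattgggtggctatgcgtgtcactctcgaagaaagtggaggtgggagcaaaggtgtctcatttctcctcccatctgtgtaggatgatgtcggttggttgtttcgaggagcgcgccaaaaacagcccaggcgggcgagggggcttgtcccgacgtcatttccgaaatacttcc
Cox6a1 held both motifs, Uqcr11 held the ETS core, and Cox5b and Cox8a held neither. The Atp5b window, not printed, also held neither. A match is a description of the letters only, and a window without a match says nothing about the factor.

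Within complex V and complex IV the members were expressed at very different levels. Per kilobase of annotated exon, the mean normalized count over the aging table was highest for Atp5a1, the alpha subunit of the catalytic F1 head (1550 per kb). It was followed by Cox8a, a small subunit of complex IV (1108 per kb), Atp5h, the d subunit of the peripheral stalk (1076 per kb), and Atp5b, the catalytic beta subunit (836 per kb). Sdha, the flavoprotein of complex II, was at 754 per kb, and Uqcrb, a supernumerary subunit, was the highest of complex III at 472 per kb. The length is the union of all annotated exons of a gene, so these orders depend on the annotation. Before division by it, Uqcrc1 was above Uqcrb, at mean normalized counts of 1545 and 413. Atp5b was likewise above Cox8a, at 3542 and 686. Among the genes for the membrane c-ring, Atp5g3 (161 per kb) was above Atp5g2 (51.5 per kb) and Atp5g1 (19.6 per kb). Before division by length, Atp5g1 was above Atp5g2, at mean normalized counts of 96.3 and 86.3, so their order depends on the annotated length. Of the complex IV isoform pairs, the ubiquitous gene was the higher one in each: Cox6a1 at 555 against 26.5 per kb for Cox6a2, Cox8a at 1108 against 71.6 for Cox8b, Cox7a2 at 141 against 34.0 for Cox7a1, and Cox4i1 at 701 against 2.01 for Cox4i2. Cox6a2, Cox7a1 and Cox8b are known as heart and skeletal muscle isoforms.

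In 5XFAD microglia, 7 members were called higher than in wild type, with Sdhc the only one of complex II. Of the 7, 5 belong to complexes III and IV, which held 8 and 15 of the 44 members tested. With limma on log2(normalized count + 1), where a call is a Benjamini-Hochberg adjusted p under 0.05 over all 17025 genes tested, 7 of 44 members rose and none fell. That is 15.9% of the members, against 1.62% of all genes called higher and 1.98% called in either direction. The 7 were Cox5b, Cox6a1 and Cox4i1 of complex IV, Uqcrq and Uqcr11 of complex III, Atp5b of complex V and Sdhc of complex II. At an unadjusted p under 0.05, 23 members were higher (52.3%, against 8.93% of all genes) and 0 were lower (6.18% of all genes). The median log2 change over the 44 members was 0.69, against 0.00 over all genes, and 38 members were above 0 (86.4%, against 50.1% of all genes). In bulk samples, a change in the number of cells of a type and a change in RNA per cell cannot be told apart. These calls depend on the test: without limma's variance trend and robust option no member was called, edgeR on recovered reads called 1 (Cox5b), and DESeq2 on recovered reads called 15.

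Complex IV held the member with the smallest p. Cox5b (chromosome 1, 36691449 to 36693681), a zinc-binding structural subunit, had normalized counts of 299, 371 and 274 in wild type, 533, 901 and 673 in 5XFAD, and 799, 571 and 719 in 5XFAD labelled Trem1+/-. All 6 transgenic libraries lay above all 3 wild-type libraries. Its log2 change in 5XFAD was 1.13 ± 0.23 (SE), a 2.19-fold higher level (limma adjusted p = 0.0152). Cox6a1 (chromosome 5, 115345642 to 115348981), a regulatory subunit, had 229, 122 and 251 in wild type, 657, 411 and 413 in 5XFAD, and 585, 486 and 620 in 5XFAD labelled Trem1+/-. Again no transgenic library fell within the wild-type range, and the log2 change in 5XFAD was 1.33 ± 0.29 (limma adjusted p = 0.0201). Cox4i1 (chromosome 8, 120668222 to 120674207), the common form of subunit 4, had 875, 567 and 1067 in wild type, 1892, 1358 and 1330 in 5XFAD, and 1370, 1201 and 1382 in 5XFAD labelled Trem1+/-. Here too the transgenic and wild-type libraries did not overlap, and the log2 change in 5XFAD was 0.90 ± 0.20 (limma adjusted p = 0.0307). All 10 ubiquitous subunits of complex IV were above 0 in 5XFAD, from 0.18 for Cox7a2 to 1.38 for Cox6c, and 7 of them had an unadjusted p under 0.05.

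**Figure D1:**
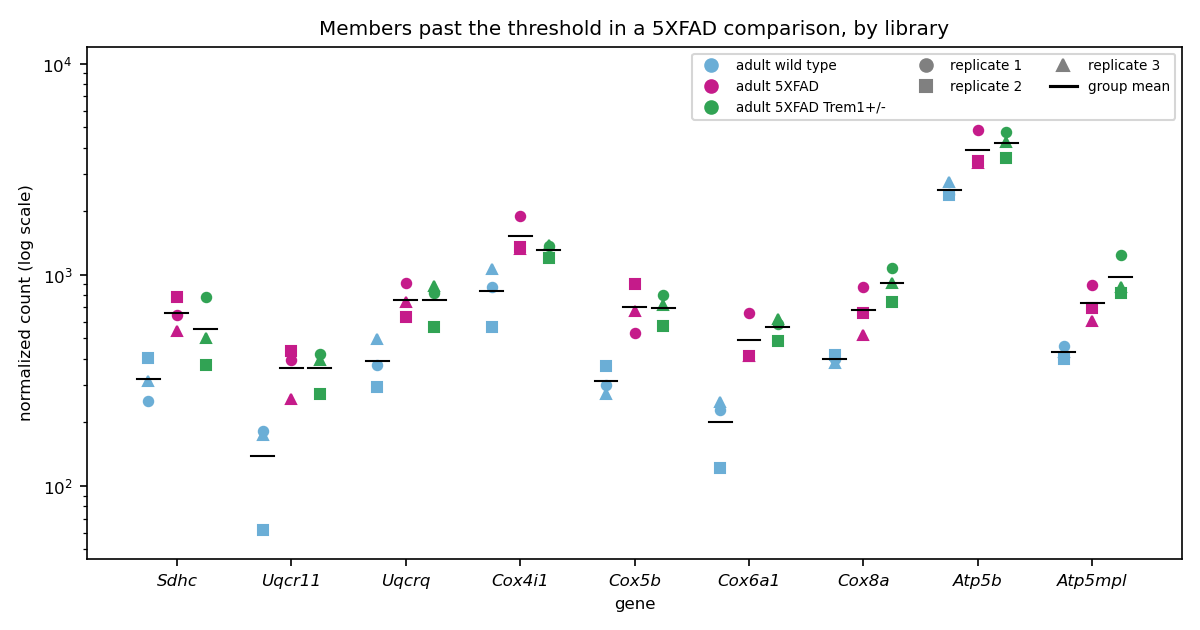
Normalized counts (log scale) of the 9 members past the threshold in either 5XFAD comparison, with 1 point per library, the shape giving the replicate number and the bar the group mean. The 3 adult wild-type libraries lie below the 3 adult 5XFAD libraries in each gene; for Sdhc, 1 library labelled Trem1+/- lies within the wild-type range.

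Complex III gave 2 calls, both small subunits. The 5 small supernumerary subunits had log2 changes of 0.76 to 1.49 in 5XFAD, and all 5 had an unadjusted p under 0.05. The 3 larger ones, the core proteins Uqcrc1 and Uqcrc2 and the Rieske iron-sulfur protein Uqcrfs1, had values of 0.00 to 0.32, and none did. Uqcrq (chromosome 11, 53427922 to 53430831), a small subunit next to cytochrome b, had normalized counts of 375, 294 and 498 in wild type, 914, 631 and 742 in 5XFAD, and 817, 565 and 885 in 5XFAD labelled Trem1+/-. The groups did not overlap, and the log2 change in 5XFAD was 0.99 ± 0.23 (limma adjusted p = 0.0351). Uqcr11 (chromosome 10, 80402997 to 80406830), another small subunit, had 182, 62.1 and 174 in wild type, 393, 436 and 258 in 5XFAD, and 422, 271 and 396 in 5XFAD labelled Trem1+/-. Wild type replicate 2 was far below the other 2, and the log2 change in 5XFAD was 1.49 ± 0.38 (limma adjusted p = 0.0484). The call was lost without that library, and in 13 of 20 alternative settings in all. Annotated exon length was 584 to 1831 bases in the small subunits and 1363 to 4135 in the larger ones. Shorter genes of any kind were also higher in 5XFAD, as described below, and both calls were lost with the length trend removed. The difference between supernumerary and core subunits was not tested, nor was the part of length in it.

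Complex II gave 1 call among its 4 genes. Sdhc (chromosome 1, 171127165 to 171150603), a membrane anchor, had normalized counts of 253, 402 and 313 in wild type, 648, 784 and 544 in 5XFAD, and 785, 376 and 500 in 5XFAD labelled Trem1+/-. All 3 5XFAD libraries were above wild type, with a log2 change of 1.04 ± 0.27 (limma adjusted p = 0.0489). That call too was lost in 13 of 20 alternative settings. The other anchor Sdhd was at -0.07 ± 0.23, the iron-sulfur subunit Sdhb at 0.10 ± 0.20 and the flavoprotein Sdha at 0.14 ± 0.13, each with overlapping groups and no call. Sdha is the most expressed of the 4, at 2273 to 2975 normalized counts in wild type and 2614 to 3131 in 5XFAD.

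Of complex V, only the catalytic beta subunit Atp5b was called in 5XFAD. Atp5b (chromosome 10, 128083273 to 128090391) had normalized counts of 2420, 2393 and 2761 in wild type, 4830, 3453 and 3395 in 5XFAD, and 4769, 3577 and 4276 in 5XFAD labelled Trem1+/-. The groups did not overlap, and the log2 change in 5XFAD was 0.61 ± 0.15 (limma adjusted p = 0.037). Its partner Atp5a1 was at 0.19 ± 0.14, with 3929 to 4335 in wild type and 3771 to 5915 in 5XFAD. The 5 genes of the F1 head and central stalk were all above 0, from 0.19 for Atp5a1 to 0.84 ± 0.22 for the delta subunit Atp5d (limma adjusted p = 0.0568). Atp5mpl, a small membrane subunit also known as 6.8PL, was at 0.75 ± 0.20 (limma adjusted p = 0.0693). Among the c-ring genes, which encode the same mature protein, Atp5g3 was at 0.97 ± 0.31, Atp5g2 at 0.32 ± 0.48 and Atp5g1 at -0.05 ± 0.73, with no call. Atp5h ran from 731 to 2905 within the 5XFAD group alone, and its log2 change of 0.17 ± 0.53 was not called. Of the 3 complex V members below 0, Atp5o, the stalk subunit OSCP, had -0.62 ± 0.41 and Atp5s -0.61 ± 0.50.

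The microglia of 5XFAD mice labelled Trem1+/- were compared with the same 3 wild-type libraries, so the values of this and the previous comparison are not independent. Here too 7 of 44 members rose and none fell, against 2.04% of all genes called higher and 2.78% in either direction. Cox6a1 had a log2 change of 1.55 ± 0.29 (limma adjusted p = 0.00648), Cox5b 1.14 ± 0.23 (0.01), Uqcr11 1.5 ± 0.38 (0.0385), Uqcrq 0.96 ± 0.23 (0.0313) and Atp5b 0.73 ± 0.15 (0.00972). The other two calls were Atp5mpl and Cox8a. Atp5mpl (chromosome 12, 111961375 to 111966977) had normalized counts of 462, 401 and 431 in wild type, 890, 699 and 606 in 5XFAD, and 1244, 819 and 877 in 5XFAD labelled Trem1+/-. Its log2 change against wild type was 1.16 ± 0.20 (limma adjusted p = 0.00463), the smallest p of any member in the table. Cox8a (chromosome 19, 7215153 to 7217616) had 398, 415 and 381 in wild type, 872, 659 and 520 in 5XFAD, and 1078, 745 and 917 in 5XFAD labelled Trem1+/-. The wild-type values were close together and all 6 transgenic libraries were above them, with a log2 change of 1.18 ± 0.21 against wild type (limma adjusted p = 0.00519). Sdhc and Cox4i1, called in 5XFAD, were at 0.74 ± 0.27 and 0.70 ± 0.20 here, without a call.

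Against wild type the members labelled Trem1+/- had a median log2 change of 0.69 (0.02 over all genes), and 42 of 44 were above 0 (95.5%, against 51.4%). At an unadjusted p under 0.05, 28 members were higher (63.6%, against 9.44%). In 29 members (65.9%, against 12.9% of all genes) the 3 libraries labelled Trem1+/- all lay above the 3 wild-type libraries, and in 0 members below (12.6% of all genes). The same held for 18 members (40.9%, against 9.32%) in 5XFAD, with 1 member (8.01% of all genes lower), the testis isoform Cox6b2, below wild type in all 3 libraries. All 7 calls were again lost without limma's variance trend and robust option, while 11 members were called with no filter on low counts. On recovered reads edgeR called 6 members, 5 of them among the 7, and DESeq2 called 10, among them all 7.

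**Figure D2:**
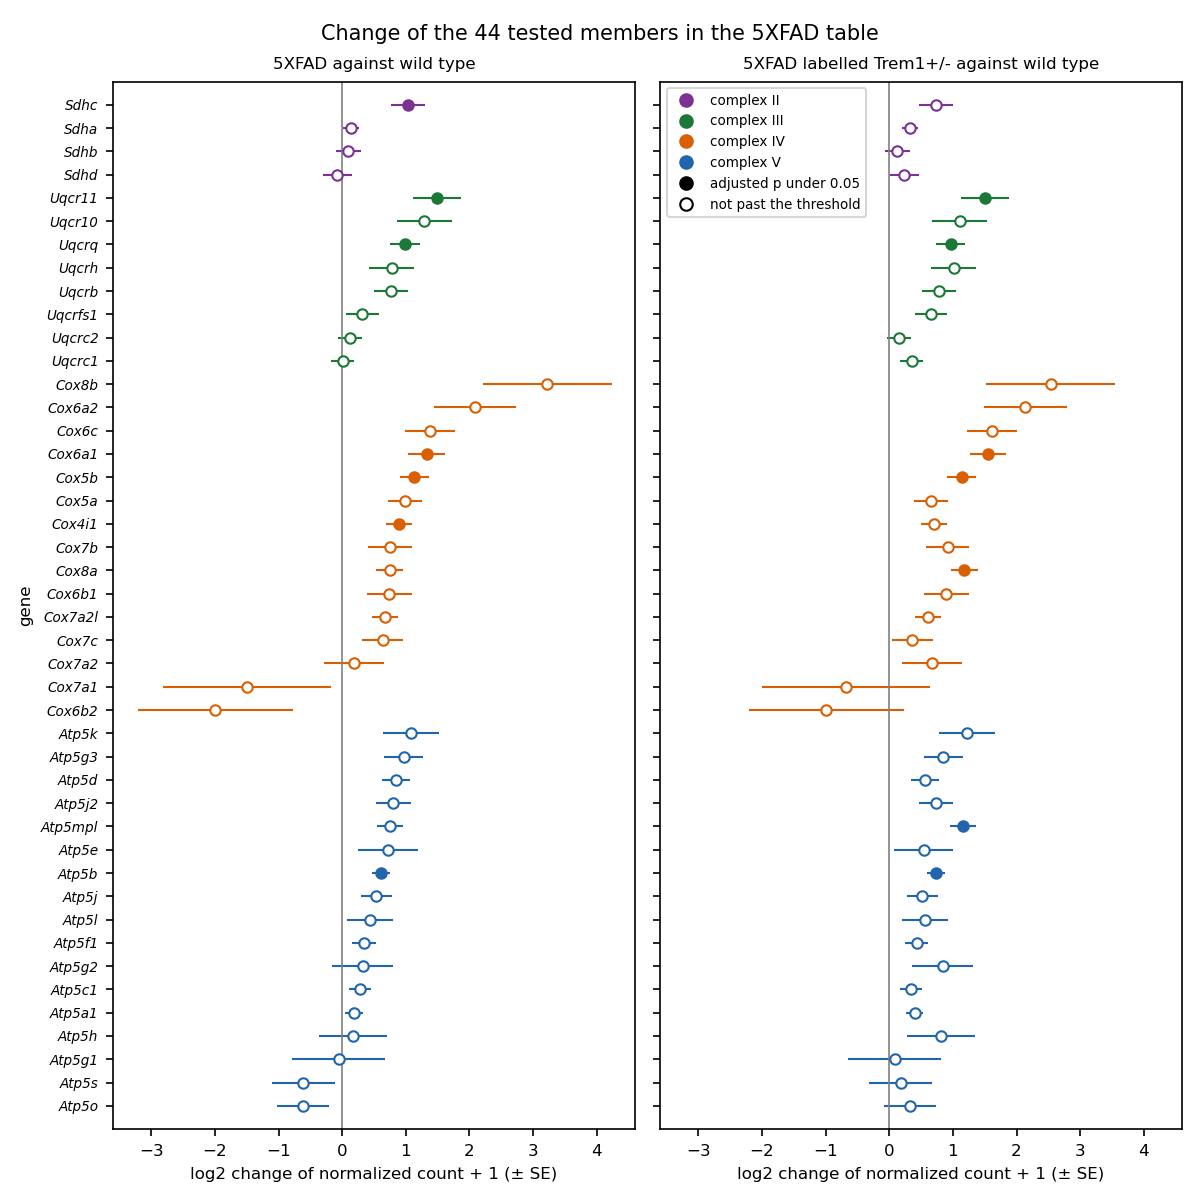
Log2 change of normalized count + 1 with its SE for each tested member in both 5XFAD comparisons against the same 3 wild-type libraries, sorted by complex; filled points have an adjusted p under 0.05. In 5XFAD 38 of 44 members lie above 0, and in 5XFAD labelled Trem1+/- 42 of 44.

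Between the 5XFAD groups with and without the Trem1+/- label, no member was called by limma, and no gene of the table was (0%). At an unadjusted p under 0.05, 1 member and 5.19% of all genes differed. That member was Atp5o, with 274.5, 64.0 and 140.5 normalized counts in 5XFAD and 311, 258 and 228 in 5XFAD labelled Trem1+/-. The ranges overlapped, and the log2 change was 0.96 ± 0.41 (limma adjusted p = 0.931). edgeR and DESeq2 on recovered reads called 0 members as well. The median over members was 0.12, against 0.02 over all genes. Atp5mpl was at 0.42 ± 0.20 and Cox8a at 0.43 ± 0.21, both higher with the label and both short of the threshold (limma adjusted p = 0.931).

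The libraries within a group were not alike. The median log2 deviation of the 44 members from their means over the 5XFAD table was -0.49, -0.53 and -0.19 in the 3 wild-type libraries. It was 0.47, 0.07 and 0.03 in 5XFAD and 0.42, 0.07 and 0.30 in 5XFAD labelled Trem1+/-. Replicate 1 was the highest library in both transgenic groups, and every wild-type library was below every transgenic one. Without 5XFAD replicate 1 the median log2 change of the members was 0.46 and 1 member (Cox5b) was called. Without wild type replicate 2 it was 0.55, and again only Cox5b was called.

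**Figure D3:**
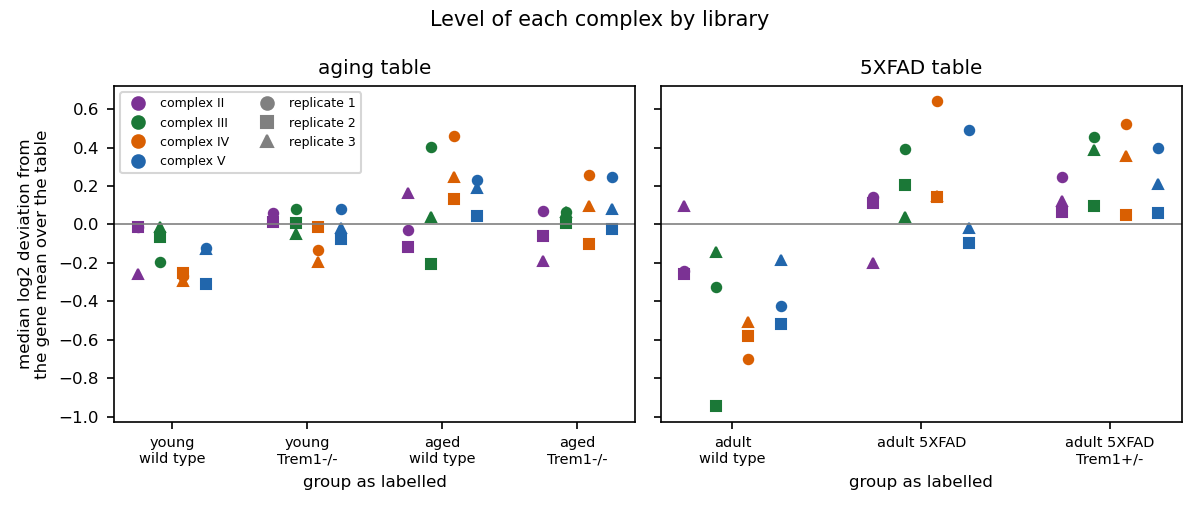
Median log2 deviation of the tested members of each complex from their gene means over the table, for each library of the aging table (left) and the 5XFAD table (right); colours give the complex and shapes the replicate number. The 3 adult wild-type libraries are below 0 for complexes III, IV and V, and adult 5XFAD replicate 1 is the highest library of its group for complexes III to V.

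Transcripts of some other brain cells moved in the same direction as the members. The summed normalized count of 6 choroid plexus and ependyma markers, Ttr, Kl and Folr1 among them, was 11426, 4257 and 6697 in wild type. It was 137833, 25503 and 42337 in 5XFAD, and 174859, 33215 and 54781 in 5XFAD labelled Trem1+/-. All 6 transgenic libraries were above wild type, and replicate 1 was the highest of each group, as it was for the members in both transgenic groups. In wild type, replicate 3 was the highest for the members. Of these markers Folr1 and Foxj1 were at 0 in 1 wild-type library each, and none was at 0 in the transgenic libraries. The 9 neuron markers summed to 155 to 246 in wild type, 307 to 1580 in 5XFAD and 279 to 360 in 5XFAD labelled Trem1+/-, and the 6 astrocyte markers to 3090 to 4023, 4009 to 5986 and 4419 to 5177. In the same order, oligodendrocyte markers summed to 1441 to 1544, 1484 to 1727 and 1609 to 1809. Endothelial and mural markers summed to 835 to 1265, 748.5 to 2116 and 899 to 2145. In both of these lists, and in the astrocyte list, 5XFAD overlapped wild type. The 9 microglial markers were lower in all 3 5XFAD libraries (277093 to 329770) than in wild type (350887 to 385924). With the Trem1+/- label they summed to 336245 to 368815, which overlaps wild type. Single markers differed in direction: Olfml3 was 22822 to 24222 in wild type and 26375 to 28499 in 5XFAD. The part of these cells in the higher level of the subunit genes was not tested.

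Gene length moved with the result as well. Protein-coding genes outside the members with under 750 bases of annotated exon had a median log2 change of 0.63 in 5XFAD against wild type (139 genes), and the median fell with length to -0.02 from 4000 bases upwards (7662 genes). The 9 members under 750 bases had a median of 1.29, among them Cox8b, Cox6a2, Uqcr11 and Cox6a1. The 12 members of 1500 to 2500 bases had a median of 0.78 against 0.14 for the other genes of that length, and the 6 of 4000 bases or more had 0.24. So in 5XFAD the members had a higher median than other genes of their length in each class, and shorter genes of any kind were higher too. With the length trend of each library removed, a setting added after the data were seen, the median over members was 0.46 in 5XFAD and 0.42 in 5XFAD labelled Trem1+/-. The calls then went from 7 to 1 (Atp5b) and from 7 to 3. The part of length in the calls was not tested beyond this setting.

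**Figure D4:**
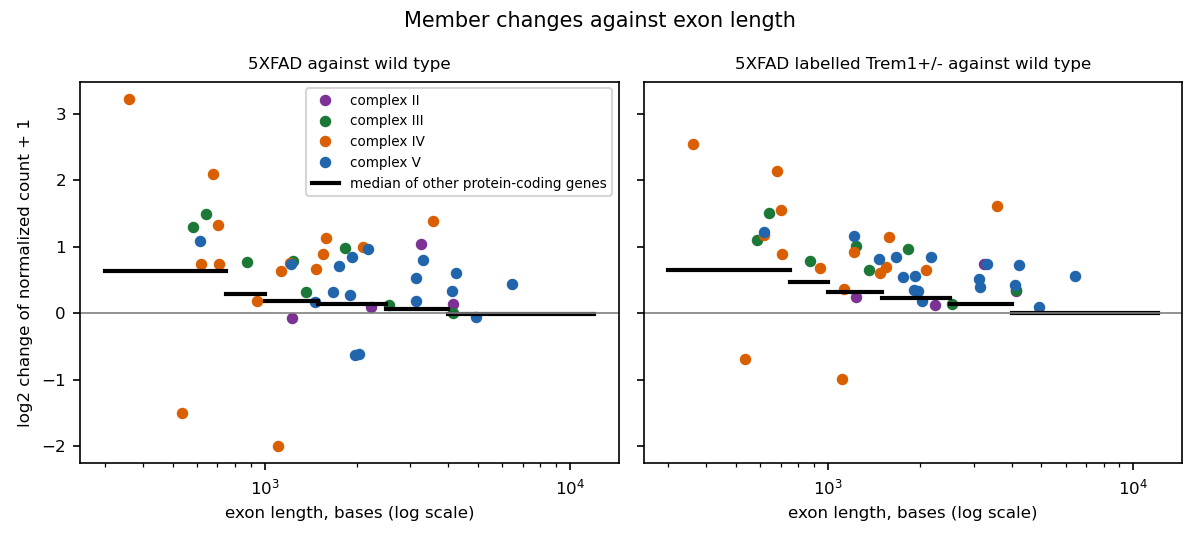
Log2 change of each tested member against its annotated exon length (log scale) in both 5XFAD comparisons, coloured by complex; black bars give the median of other protein-coding genes in 6 length classes, of which the first and last are open-ended. The bars fall from 0.63 to -0.02 on the left, and most members lie above the bar of their class.

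Other gene lists of the pathway had lower medians than the members in 5XFAD, and the differences were not tested. The 37 tested genes for complex I subunits (Nduf symbols) had a median log2 change of 0.35 with 0 calls, and 10 with an unadjusted p under 0.05, all higher. The 6 mitochondrially encoded subunits of complexes III to V had a median of 0.55 and 0 calls. Assembly factors of complexes II to V, which build the complexes but are not part of them, had a median of -0.05 over 31 genes with 0 calls. Of 13 genes for mitochondrial mass and import, 1 was called, the adenine nucleotide carrier Slc25a4 at 0.80 ± 0.18 (limma adjusted p = 0.0307). Of 12 regulators of respiratory genes 0 were called, with a median of 0.08. For scale, cytosolic ribosomal protein genes, which are also short and highly expressed, had a median of 0.79 over 76 genes, mitochondrial ribosomal protein genes 0.19 over 77 and proteasome subunit genes 0.16 over 38. In 5XFAD labelled Trem1+/- the medians were 0.40 for complex I, with Ndufa1 and Ndufa13 called higher, 0.18 for assembly factors and 0.83 for cytosolic ribosomal proteins.

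The heart and muscle isoforms of complex IV had large fold changes from low levels. Cox8b had normalized counts of 6.60, 1.17 and 8.29 in wild type, 87.5, 48.0 and 27.8 in 5XFAD, and 98.3, 10.7 and 24.9 in 5XFAD labelled Trem1+/-. All transgenic libraries were above wild type. The log2 change of 3.22 ± 1.01 in 5XFAD was not called (limma adjusted p = 0.119). Cox6a2 had 20.9, 11.7 and 28.7 in wild type, 94.8, 43.6 and 147 in 5XFAD, and 45, 104 and 143.5 in 5XFAD labelled Trem1+/-, again without overlap. Its log2 change was 2.09 ± 0.65 in 5XFAD (limma adjusted p = 0.116). Cox7a1 was at 29.7, 19.9 and 6.03 in wild type and at 19.2, 0 and 8.99 in 5XFAD, where the other direction, -1.5 ± 1.32, was far from a call. A count of 3 reads, the limit that a count of 0 allows, equals 2.26 to 4.36 normalized counts in this table. The limit covers counting error only.

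The authors' deposited table gives the same comparison of wild type with 5XFAD by DESeq2, with positive values for higher in wild type. There 15 of 45 members with an adjusted p-value in the authors' deposited table were called, all higher in 5XFAD, against 4.24% of 20098 genes. Beside the 7 members above, these were Atp5d, Atp5mpl, Cox5a, Cox6a2, Cox6c, Cox7a2l, Cox8a and Cox8b. Cox5b had a log2 fold change of -1.16 ± 0.25 in the authors' deposited table (adjusted p = 3.4e-04), and Cox6c, a small complex IV subunit, -1.47 ± 0.33 (adjusted p = 7.6e-04). For Cox6c limma gave 1.38 ± 0.39 in the opposite sign convention without a call (adjusted p = 0.128), although its 3 5XFAD libraries (598 to 1460) were all above wild type (332 to 472).

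With age, 3 members rose in wild-type microglia, all of complexes IV and V, and none fell. That is 6.82% of 44, against 6.43% of all 16086 genes called higher and 8.67% in either direction, so the share of calls was near the background. The 3 were Cox5a, Atp5b and Atp5a1. Cox5a (chromosome 9, 57521274 to 57532426), a subunit of complex IV on the matrix side, had normalized counts of 180, 105 and 190 in young and 430, 274 and 266 in aged wild type. The groups did not overlap, and the log2 change was 1.04 ± 0.29 (limma adjusted p = 0.0272). Atp5a1 (chromosome 18, 77773729 to 77782869) had 4310, 4154 and 4489 in young and 5680, 4990 and 5699 in aged wild type, a log2 change of 0.34 ± 0.10 (limma adjusted p = 0.031). Atp5b had 2939, 2947 and 3119 in young and 4409, 3514 and 4235 in aged wild type, a log2 change of 0.43 ± 0.13 (limma adjusted p = 0.0416). Alpha and beta, the subunits of the F1 head, were thus higher in every aged wild-type library than in any young one.

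At an unadjusted p under 0.05, 15 members were higher with age in wild type (34.1%, against 13.6% of all genes). In 14 members (31.8%, against 15.1%) the aged wild-type libraries all lay above the young ones, and 35 members (79.5%, against 49.4%) were above 0. Atp5s was the 1 member lower at an unadjusted p under 0.05 (8.12% of all genes), at -1.05 ± 0.50 (limma adjusted p = 0.217), where aged wild type replicate 1 had 17.8 normalized counts and the other two 74.8 and 66.7. Complex IV had the highest median log2 change, 0.52, followed by complex V with 0.34, complex III with 0.15 and complex II with 0.11. Over all 44 members the median was 0.28, against -0.01 for all genes. Under 750 bases of annotated exon, the 9 members had a median of 0.255, below the 0.469 of 143 other protein-coding genes. In each longer class the members had the higher median. The calls depended on single libraries: without young wild type replicate 2 or aged wild type replicate 1 no member was called, without young wild type replicate 1 or aged wild type replicate 3 only Cox5a was, and without aged wild type replicate 2 there were 5. Aged wild type replicate 1 was the highest library of the table for the members, with a median deviation of 0.35. Among other pathway genes cytochrome c, Cycs, rose by 0.56 ± 0.17 on the log2 scale (limma adjusted p = 0.0392) and the mitochondrial chaperonin Hspd1 by 0.76 ± 0.19 (limma adjusted p = 0.0116), while 0 of 37 complex I genes and 0 of 30 assembly factors were called.

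**Figure D5:**
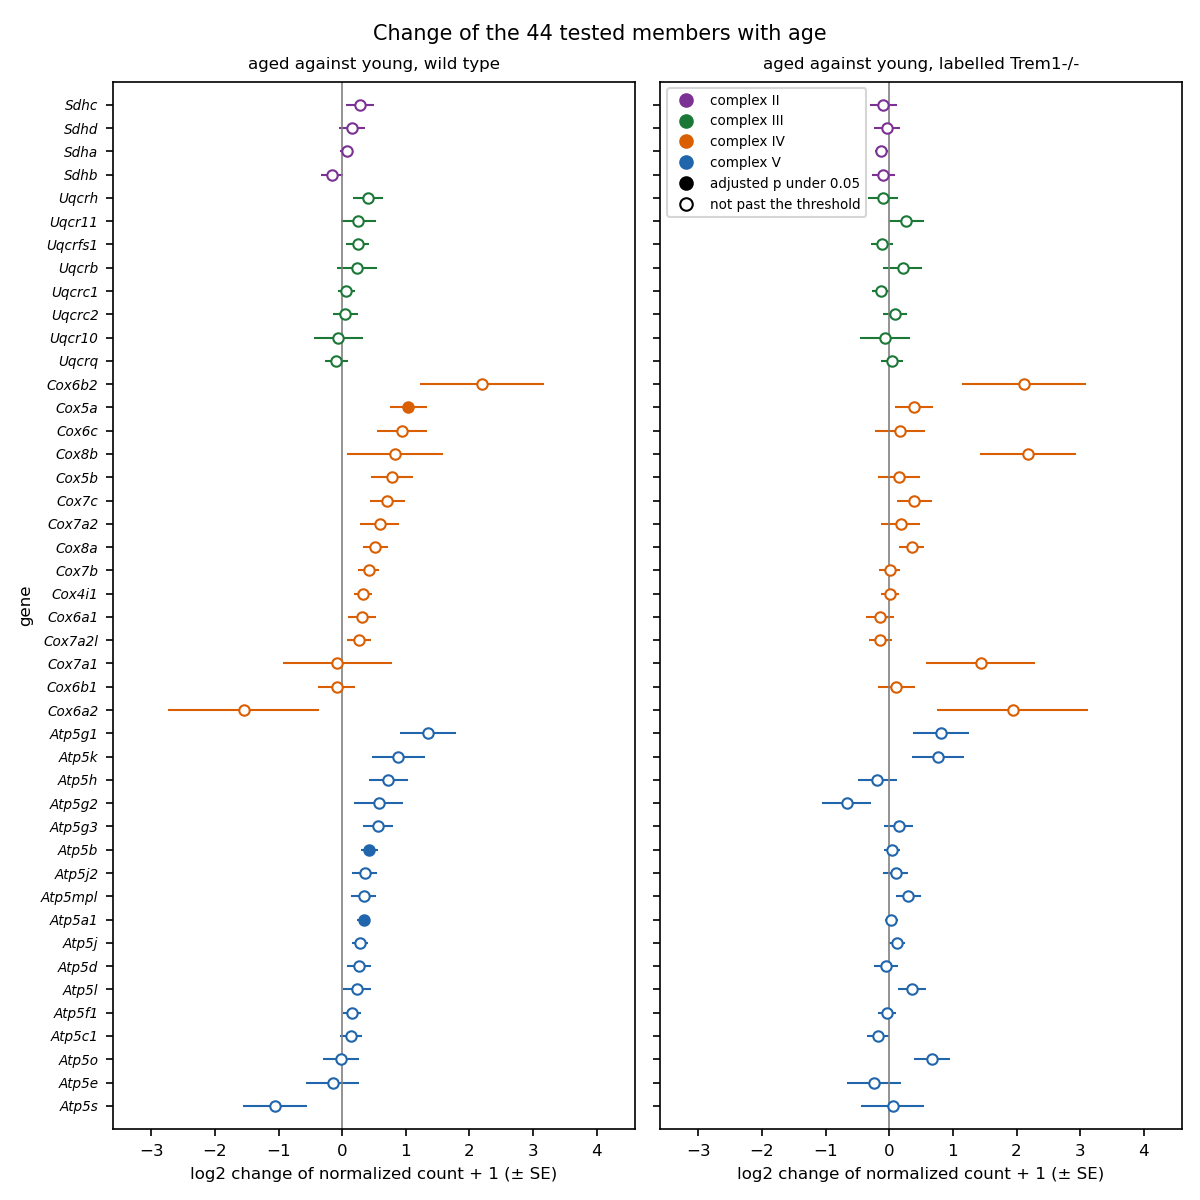
Log2 change with age of normalized count + 1 with its SE for each tested member, in wild type (left) and in libraries labelled Trem1-/- (right), sorted by complex and by the wild-type value; filled points have an adjusted p under 0.05. In wild type 35 of 44 members lie above 0 and 3 are filled, and on the right 28 lie above 0 (50% of all genes) and none is filled.

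Summed markers of blood and choroid cells also differed with age. The 13 neutrophil markers summed to 9080 to 16578 normalized counts in young and 72990 to 140537 in aged wild type, the 8 monocyte markers to 1450 to 2658 and 10035 to 20660, and the 6 choroid plexus and ependyma markers to 10203 to 25351 and 45929 to 80793. The microglial markers summed to 370408 to 405194 in young and 305221 to 316066 in aged wild type. In the libraries labelled aged Trem1-/- the sums were 59270 to 149344 for neutrophils, 11497 to 14041 for monocytes, 54702 to 67411 for choroid plexus and ependyma, and 264455 to 298882 for microglia. In each list neither aged group overlapped young wild type. In the libraries labelled young Trem1-/- the neutrophil sum was 28841 to 68922 and the monocyte sum 10702 to 20016. Both lay above young wild type and overlapped the libraries labelled aged Trem1-/-. Their choroid plexus and ependyma sum, 4287 to 26742, overlapped young wild type, and their microglial sum, 349811 to 363766, lay below it. The part of these cells in the values of the subunit genes, with age or between young genotypes, was not tested.

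With the label Trem1-/-, no member was called between aged and young mice by limma, against 1.71% of all genes. At an unadjusted p under 0.05, 3 members were higher (6.82%, against 8.09% of all genes): Cox8b at 2.18 ± 0.76, Cox6b2 at 2.12 ± 0.98 and Atp5o at 0.67 ± 0.28. edgeR and DESeq2 on recovered reads called 0 members. The median over members was 0.07, against 0.00 over all genes. Cox5a was at 0.39 ± 0.29, Atp5b at 0.04 ± 0.13 and Atp5a1 at 0.03 ± 0.10, where all 3 had been called in wild type. The difference between the genotypes was tested as an interaction, in which no member was called, against 2.54% of all genes. There Atp5b had -0.39 ± 0.18 (limma adjusted p = 0.318), Atp5a1 -0.30 ± 0.14 (0.288) and Cox5a -0.65 ± 0.42 (0.491). At an unadjusted p under 0.05, 4 members (15.3% of all genes) had an interaction, Atp5g2, Atp5a1, Atp5b and Cox6a2, and edgeR and DESeq2 called 0.

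Between genotypes at 1 age no member was called either. In young mice the label Trem1-/- had a median log2 change of 0.12 over the members (2.58% of all genes called in either direction), and 33 of 44 were above 0 (75%, against 49.1% of all genes). The only member with an unadjusted p under 0.05 (11.8% of all genes) was Atp5h, with 1419, 629 and 1398 normalized counts in wild type and 1687, 1714 and 1920 in the libraries labelled Trem1-/-. All 3 labelled libraries were above wild type, whose replicate 2 was far below the other 2. Its log2 change was 0.72 ± 0.31 (limma adjusted p = 0.389). Cox8a at 0.39 ± 0.20 and Cox8b at -1.49 ± 0.76 had the next smallest p, with overlapping groups. In aged mice the median was -0.10, with 13 of 44 members above 0 (29.5%, against 48.1% of all genes), and limma called no gene of the table (0%), edgeR 0 and DESeq2 23. There Atp5g2 was the only member with an unadjusted p under 0.05, against 9.6% of all genes. It had 122, 95.3 and 128 normalized counts in aged wild type and 74.7, 48.5 and 54.2 in the libraries labelled aged Trem1-/-. The log2 change was -0.96 ± 0.39 (limma adjusted p = 0.428), without overlap between the groups. The next were Cox6c at -0.82 ± 0.39 and Atp5o at 0.53 ± 0.28, with overlapping groups. edgeR on recovered reads called 0 members in both comparisons. DESeq2 called 0 in young mice. In aged mice it gave 28 of the 44 members no adjusted p and called 0 of the rest.

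Set directly against young wild type, the libraries labelled aged Trem1-/- had 1 called member, against 6.67% of all genes in either direction. In 14 members (31.8%, against 12.9% of all genes) they all lay above young wild type. The called member was Cox8a, with 535.5, 362 and 647 normalized counts in young wild type and 847, 905 and 766 in the labelled aged libraries. The groups did not overlap, and the log2 change was 0.74 ± 0.20 (limma adjusted p = 0.0219). It was lost without limma's variance trend and robust option, with the length trend removed, without young wild type replicate 2, or without aged Trem1-/- replicate 1 or 2. The neutrophil, monocyte, choroid and microglial marker sums did not overlap between these groups either, and their part in the Cox8a call was not tested. Cox5a at 0.87 ± 0.29 (limma adjusted p = 0.0777) and Atp5j, a stalk subunit, at 0.36 ± 0.13 (0.105) did not overlap either but were not called. The authors' deposited table for this contrast called the same gene alone among 44 members, at -0.70 ± 0.21 with the sign of young wild type minus aged Trem1-/- (adjusted p = 0.0196), and 7.32% of 20305 genes.

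Some members share sequence with other genes, and the labels do not say whether reads were counted by strand. In the GENCODE M21 annotation, exons of 12 tested members overlap a gene on the other strand. The shares were 9.94% of Cox4i1 (with Emc8), 12.8% of Cox5a, 12.7% of Atp5j (with Gabpa), 10.3% of Cox6a2 (with Itgad) and 19.7% of Uqcrc2 (with Pdzd9). Cox6a2 has few reads, so its values are uncertain for this reason too. Atp5o overlaps 2 opposite genes and a second gene of its own symbol, so its counts are uncertain. The 7 pseudogene symbols left out show that some subunits also have copies in the genome, and counting can split reads between a gene and its copies.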

How the data were processed

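RNA from primary brain microglia was extracted with an RNeasy kit and made into libraries with a NEBNext Ultra kit, per the labels' protocols. Per the submitters' processing notes, the tools were fastp, HISAT2 2.0.5, featureCounts 1.5.0-p3 and DESeq2 1.20.0, with the build GRCm38. The annotation release, strandedness and settings are not given in the sources used here. The deposited values per library are a normalized signal, gene counts that the authors divided by a size factor, in 2 tables normalized separately. The low values fell on steps of 1 read, and at least 99.9956% of values per library came out within 0.05 of a whole read. The authors' deposited log2 fold changes and adjusted p-values cover 1 comparison per table and were used only where named.

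Of these values, log2(normalized count + 1) was tested with limma 3.58.1 (R 4.3.3), with a variance trend and robust option. All groups of a table entered 1 fit, over genes with a mean of at least 10. P-values were adjusted by Benjamini-Hochberg over 16086 genes (aging) or 17025 genes (5XFAD), two-sided, with a threshold of 0.05. Exact permutation of 3 against 3 libraries cannot go below p = 0.1, so no such test was run. Replicate libraries differed beyond counting noise, with a chi-square per degree of freedom of 12.9 to 48 over 21 pairs. Depth set a floor of 3 reads, at 2.06 to 4.51 normalized counts for aging.

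Alternatives were another pseudocount or filter, TMM scaling, limma without the variance trend and robust option, only the groups compared, a replicate block, edgeR 4.0.16 and DESeq2 1.42.0 on the recovered reads, leaving out each library, and removal of the exon length trend. The members and lists were chosen with earlier results of these data known. The rule for named members took those called in a comparison, or the 3 with the smallest p where fewer passed. It also took the complex II genes, the isoform pairs of complex IV, the c-ring genes and the member of each complex with the highest mean normalized count. Other members are named with their values known. The scripts were tested on simulated data. A microglial marker is not reported here and was left out of the sums. Symbols, exon lengths and gene positions follow GENCODE M21 on GRCm38, and promoters RefSeq.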

Additional observations from a re-analysis of the deposited data

Results flagged for a closer look

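Atp5g2, 1 of the 3 c-ring genes, had aged libraries on opposite sides of the young ones in the 2 genotypes, and no test of it passed. Its normalized counts were 72.8, 66.7 and 91.7 in young wild type and 122, 95.3 and 128 in aged wild type, all higher. They were 112, 78.5 and 90.6 in the libraries labelled young Trem1-/- and 74.7, 48.5 and 54.2 in those labelled aged Trem1-/-, all lower. The log2 change with age was 0.57 ± 0.39 in wild type (limma adjusted p = 0.43) and -0.67 ± 0.39 with the label (limma adjusted p = 0.432). Their difference, tested as an interaction, was -1.24 ± 0.54 and did not pass (limma adjusted p = 0.264).

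A few members below the level tested had reads in single libraries above the floor of 3 reads. Cox4i2, the isoform of Cox4i1 known from lung and hypoxia, had 33 reads in adult 5XFAD replicate 2, the only library of its group with any, and 4 and 6 reads in 2 wild-type libraries. The same library had 23 reads of Cox6c2, at 0 in the other 8 libraries of that table. Cox4i2 also had 4 reads in the library labelled young Trem1-/- replicate 3 and 7 reads in that labelled aged Trem1-/- replicate 3. Cox7b2 had 5 reads in aged wild type replicate 1 alone.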

How the results depend on the processing

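The count of members called was 0 under every alternative in 5 of the 9 comparisons, those without a call. Without limma's variance trend and robust option it was 0 in the other 4 as well. For aged against young wild type, 3 became 1 with edgeR and 5 with DESeq2, and 0 to 5 on leaving out 1 library. For aged Trem1-/- against young wild type, 1 became 2 with only the groups compared and with DESeq2, 0 with the exon length trend removed, and 0 to 2 on leaving out 1 library. For 5XFAD against wild type, 7 became 1 with edgeR, 15 with DESeq2, 1 with the exon length trend removed, and 1 to 8 on leaving out 1 library. It was 3 without wild type replicate 1 or 5XFAD replicate 2, and 4 without 5XFAD Trem1+/- replicate 3. For 5XFAD Trem1+/- against wild type, 7 became 6 with edgeR, 10 with DESeq2 and 11 with no filter. It was 3 with the exon length trend removed and 2 to 9 on leaving out 1 library. Without wild type replicate 2 it was 4, and without 5XFAD Trem1+/- replicate 3 it was 2. The cause was not tested. With the replicate block, 5XFAD against wild type gave 11, and no other count moved by over 1.5 times. Same-numbered libraries deviated together little (median r 0.0116 for 5XFAD, -0.0328 to 0.203, and 0.0119 for aging, -0.136 to 0.0988), so the numbers were not taken to pair the libraries, although choroid marker sums were highest in replicate 1 and lowest in replicate 2 in all 3 groups of the 5XFAD table. The median over members kept its sign throughout, at 0.46 to 0.87 for 5XFAD, 0.42 to 0.79 for 5XFAD Trem1+/- and 0.24 to 0.39 for aged wild type. Of 3576 values of single genes under an alternative, 3455 stayed on their side of the threshold, 103 lost it, 18 gained it and 0 reversed a call. Most of these values are of genes without a call in the main setting, which had none to lose. All 103 losses fell on the called genes, so calls were lost far more often than the share of 3576 shows. The length setting was chosen after the data were seen. Members near the floor of 3 reads, such as Cox8b and Cox7a1, rest on few reads.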
